A study of Mus musculus with 8 samples.

Results

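The regions described here are the autosomal H3K9me3 peaks of wild-type cells that were found again in cells lacking KDM4B. A region was included when its peak in the wild-type (WT) list shared at least 1 bp with a peak in the knockout (KO) list. There were 331 such regions, here called kept peaks, of 781 autosomal WT peaks (42.4%) and of 943 WT peaks on all chromosomes. The other 450 autosomal WT peaks, which met no KO peak, are called WT-only peaks. The regions were chosen by the measured overlap of the H3K9me3 lists, so the overlap itself, the covered lengths and the widths are given as a description.

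The cells were primary bone marrow mesenchymal stem cells placed in osteogenic induction for 4 hours. KO cells came from Prx1Cre; Kdm4bf/f mice and WT cells from Prx1Cre; Kdm4bw/w mice, so both carried the Prx1Cre transgene, in which a limb mesenchyme promoter drives the recombinase. Chromatin immunoprecipitation sequencing (ChIP-seq) gave 1 peak list per genotype for H3K9me3, for the demethylase KDM4B and for total histone H3. The labels state neither the age nor the number of the mice, and marrow cells in which the Prx1 promoter was never active would keep Kdm4b.

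H3K9me3 is histone H3 trimethylated at lysine 9, a mark of constitutive heterochromatin. In mouse cells the enzymes SUV39H1 and SUV39H2 place it on the satellite repeats beside the centromeres, and SETDB1 places it on retrotransposons and on clusters of zinc-finger genes. KDM4B removes methyl groups from this residue. Mouse autosomes have their centromere at one end, and the numbered sequence of each begins beside it, at about position 3000000.

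The targeted protein gave 35 peaks in KO and 32017 in WT cells. H3K9me3 gave 55306 peaks in KO and 943 in WT cells, and total H3 gave 28 in KO and 38 in WT cells. With 1 library per genotype and antibody there was no replicate check and no test between genotypes. Depth was given only for the H3 WT library, with 40420466 tags after filtering, and for its control, with 45099322. Depth or threshold may therefore differ between the H3K9me3 lists, and their part in any difference was not tested. Positions are those of mouse build mm9, no gene annotation or genome of that build was used here, and regions are therefore named by position.

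Where the mark was kept, the KO peaks lay closely on the WT peaks. KO peaks covered 268.7 kb of the 318.5 kb in kept peaks, or 84.4%. The median kept peak was covered over 97.4% of its width, with quartiles of 68.6 and 100%. In KO cells 128 of the 331 regions were covered from end to end, and 38 were covered over less than 50%. Most kept peaks, 299, met a single KO peak, 21 met 2 and 11 met 3 or more, with a highest number of 7. In the other direction, 29 KO peaks reached across at least 2 kept peaks.

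For 234 regions 1 KO peak met 1 WT peak and no other. Their median width was 375 bp in KO and 380.5 bp in WT, and the median KO to WT width ratio was 1.003, with quartiles of 0.865 and 1.08. The KO peak was the wider in 124 pairs and the narrower in 104, and 6 pairs had equal width. Midpoints lay a median of 29.3 bp apart, and 183 of the 234 pairs had midpoints within 100 bp. This is less than the 200 to 500 bp of the sheared chromatin. The overlap that the rule required itself limits how far apart the midpoints of such peaks can lie, so the closeness is a description. By position, 85 KO peaks enclosed their WT peak, 50 lay inside it, 98 were staggered and 1 pair had the same start and end. KO peaks were wider than their WT peak in 31 of the 43 pairs whose WT peak was under 300 bp, in 76 of 160 pairs from 300 bp to under 1 kb, and in 17 of 31 pairs of 1 kb or more. A kept narrow WT peak needed a KO partner, and the width of a peak sets its room for overlap, so these shares describe the pairs and test nothing.

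The regions nearest to the limit of the rule were narrow, except that on chromosome 17, of 520 bp. The smallest overlap, 14 bp, belonged to the peak on chromosome 4 from 152809812 to 152810020. It was followed by 18 bp on chromosome 7 from 4982351 to 4982565 and by 24 bp on chromosome 17 from 13410001 to 13410520. Just outside, the WT-only peak on chromosome 6 from 29697377 to 29697575 was 4 bp from a KO peak, that on chromosome 12 from 114012298 to 114012538 was 8 bp away, and that on chromosome 15 from 76007923 to 76008181 was 22 bp away. In all, 77 of the 450 WT-only peaks lay within 1 kb of a KO peak, and the median distance of WT-only peaks was 10.6 kb.

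Kept peaks were the wide part of the WT list. Their median width was 427 bp (quartiles 337 and 812 bp), against 248.5 bp (207 and 328 bp) for WT-only peaks. The widest kept peak measured 19611 bp and the widest WT-only peak 2390 bp. Peaks of 1 kb or more numbered 66 of 331 kept peaks, or 19.9% (95% exact binomial interval 15.8 to 24.7%), and 12 of 450 WT-only peaks, or 2.67% (1.39 to 4.61%). These 66 peaks held 64.2% of the kept length. Peaks at 199 bp, the smallest width in the list, were 3.32% (1.67 to 5.87%) of kept and 18.7% (15.2 to 22.6%) of WT-only peaks. The kept peaks held 68.6% of the autosomal WT length. All intervals cover counting error, and neighbouring peaks are not independent.

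**Figure D1:**
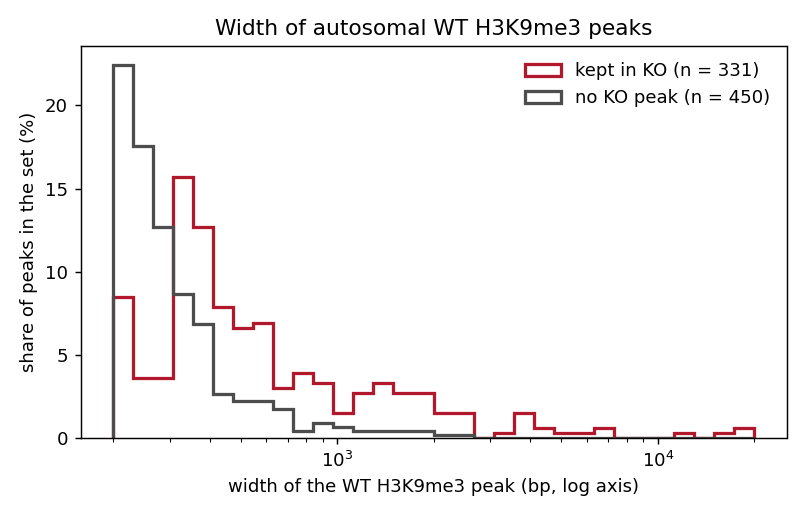
Width of autosomal WT H3K9me3 peaks (x axis, bp, log axis) against the share of each set in each width class (y axis, %), for 331 kept peaks and 450 WT-only peaks. WT-only peaks fill the narrowest classes, with a median of 248.5 bp, whereas kept peaks have a median of 427 bp and a tail up to 19611 bp.

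Much of the kept mark sat in a few blocks. When kept peaks within 10 kb of each other were chained, the 331 peaks formed 147 blocks, of which 99 held 1 kept peak and 48 held the other 232. The 10 blocks with the longest kept length contained 113 kept peaks and 64.7% of the kept length, and the first 4 contained 49.9%.

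The longest block lay at the start of chromosome 11, from 3027032 to 3100151. KO peaks covered 71.4 kb of it in 8 peaks and WT peaks 70.5 kb in 10 peaks. Its widest kept peak, the widest of all, ran from 3080541 to 3100151 and met a KO peak of 19621 bp. The next widest, from 3030231 to 3049021, measured 18791 bp and was covered in KO from end to end. Each of the 10 kept peaks here was covered over at least 98.3% of its width, so both genotypes drew nearly the same outline.

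The second block, on chromosome 1 from 90108069 to 90166863, had 51.2 kb covered in KO in 17 peaks and 48.0 kb in WT in 26 peaks. A neighbouring block, from 90176892 to 90207361, had 16.8 kb in KO and 22.5 kb in WT, a ratio of 0.747. It was cut into narrower pieces in KO, where the widest peak on it had 1943 bp, against 6994 bp in WT. These neighbouring blocks thus differed in how much of the WT outline was drawn again in KO cells, at 87.1% of the kept length in the former and 69.1% in the latter. The former was cut in places too, as its widest WT peak, of 11566 bp, met 7 KO peaks and was covered over 69.5%.

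The block at the start of chromosome 9, from 2999868 to 3038396, was made of 28 KO and 27 WT peaks, all 27 of them kept. They covered 19.7 kb in KO and 19.9 kb in WT. The block on chromosome 17 from 39979832 to 39985918 covered 5.72 kb in KO and 5.49 kb in WT, and that on chromosome 4 from 3007429 to 3018628 covered 7.06 kb in KO and 7 kb in WT. With the chromosome 11 block and the first chromosome 1 block, these 5 of the 10 longest blocks had KO to WT ratios of covered length between 0.990 and 1.07.

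The other 5 were covered less in KO. The block on chromosome 17 from 13733227 to 13746185 had 7.53 kb in KO and 10.8 kb in WT. On chromosome 16 from 3231544 to 3241749 the values were 5.80 kb in KO and 8.32 kb in WT, and on chromosome 13 from 120276419 to 120284312 they were 5.38 kb in KO and 6.83 kb in WT. The last of these blocks ended at the last peak of any list on that chromosome. The largest gap among the 10 was on chromosome 3 from 25421921 to 25450368, where KO peaks covered 3.79 kb and WT peaks 22.2 kb. There 8 of 25 WT peaks were kept, with 9.35 kb, and the other 17 have no KO peak by the rule. Against the kept length alone the ratio was 0.406. Together with the second chromosome 1 block, at 0.747, this group had ratios between 0.171 and 0.788 over all WT peaks in the span.

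Over all 147 blocks the covered length was greater in KO in 75, smaller in 68 and equal in 4, with a median KO to WT ratio of 1.006 (quartiles 0.887 and 1.13). Summed over the blocks it was 303.7 kb in KO and 343.4 kb in WT, of which 24.9 kb were WT-only peaks inside 10 of the blocks, where the rule leaves no KO peak. Against the kept length alone, 318.5 kb, KO was longer in 76 blocks, shorter in 67 and equal in 4. Blocks of at least 2 kept peaks were covered more in KO in 20 cases and less in 28. The blocks were thus about evenly split by direction on either count.

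**Figure D2:**
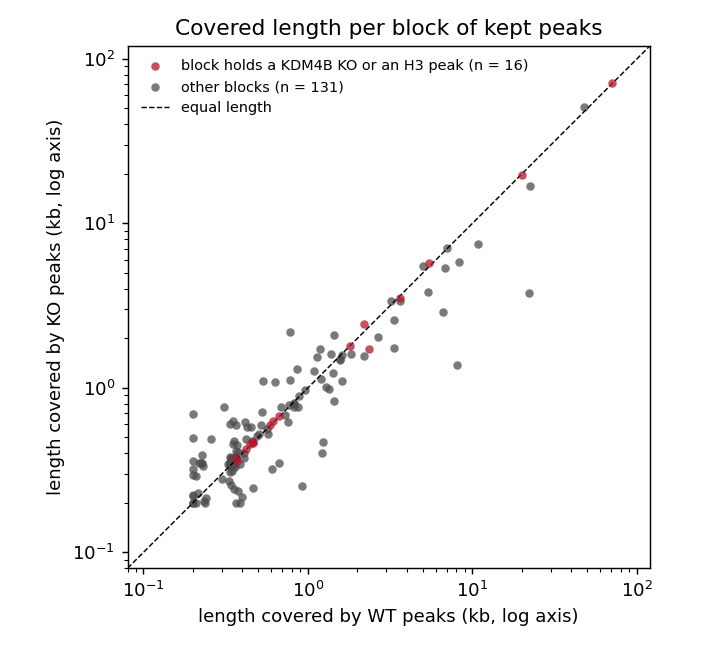
Length covered by KO peaks (y axis, kb, log axis) against length covered by WT peaks (x axis, kb, log axis) in each of the 147 blocks of kept peaks, WT-only peaks inside a block included; the dashed line marks equal length. The 16 blocks that hold a KDM4B KO or an H3 peak lie mostly near the line (quartiles of the ratio 0.994 and 1.02, range 0.735 to 1.11). The other 131 have quartiles of 0.878 and 1.15 and range from 0.171 to 3.47, the highest in a block with 199 bp of kept length. The sets differ in number and in block size.

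The wide kept peaks with the least cover in KO came from a few of these blocks. Of the 66 kept peaks of 1 kb or more, 20 were covered from end to end and 7 over less than 50%, with a median of 94.7%. The lowest cover, 12.8% of 1190 bp, was on chromosome 3 from 25444289 to 25445478. On chromosome 4 the peak from 146805055 to 146806532 was covered over 16.9% and that from 145739866 to 145741839 over 18.7%. The peak on chromosome 1 from 90186821 to 90188006 was covered over 19.8%, and that on chromosome 3 from 25431329 to 25432791 over 25.4%. At these 5 sites a wide WT peak met a KO peak of 199 to 410 bp, so they count as kept although most of the WT width had no KO peak.

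The share of WT peaks that were kept differed between chromosomes. Chromosome 9 had the highest share, 39 of 50 peaks or 78.0% (95% exact binomial interval 64.0 to 88.5%), and chromosome 1 followed with 60 of 89 or 67.4% (56.7 to 77.0%). Chromosome 4, which had the most WT peaks, had the lowest share, 28 of 141 or 19.9% (13.6 to 27.4%). The high shares rested on the blocks named above. Without the block at its start, chromosome 9 kept 12 of 23 peaks, or 52.2% (30.6 to 73.2%), and without its 2 longest blocks chromosome 1 kept 18 of 42, or 42.9% (27.7 to 59.0%). Chromosome 11 kept 19 of 40 peaks, and 9 of 30 without its longest block. Chromosome 1 held 24.6% of the kept length and chromosome 11 held 24.0%.

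**Figure D3:**
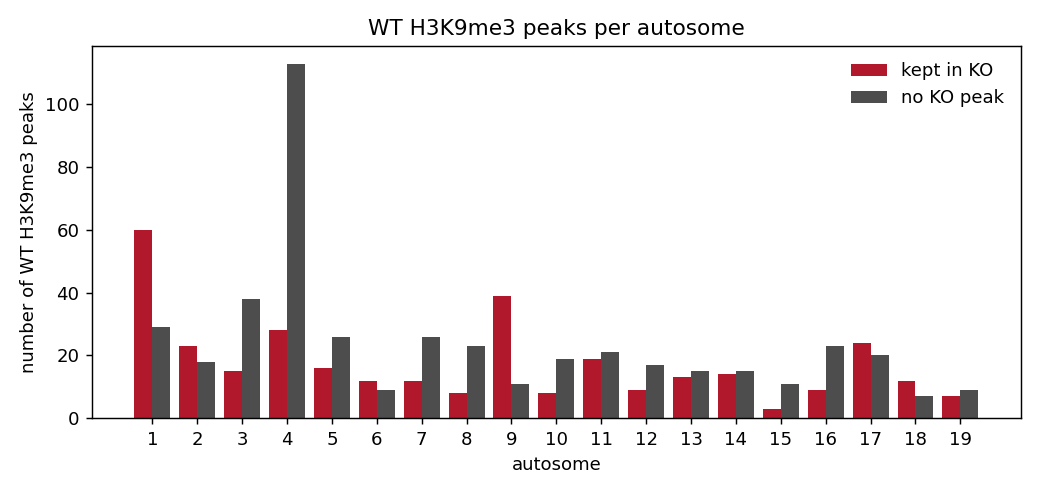
Number of WT H3K9me3 peaks (y axis) on each autosome (x axis), for kept peaks (red) and WT-only peaks (grey). Kept peaks outnumber WT-only peaks most on chromosome 1, 60 against 29, and chromosome 9, 39 against 11, and chromosome 4 has 28 against 113.

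Many kept peaks lay beside the centromeres. Within the first 500 kb after position 3000000 there were 71 of the 331 kept peaks, or 21.5% (17.1 to 26.3%), on 10 of the 19 autosomes, against 20 of 450 WT-only peaks, or 4.44% (2.74 to 6.78%). These 71 peaks held 121.4 kb, or 38.1% of the kept length. Chromosome 11 had 13 of them with 72.8 kb and chromosome 9 had 28 with 20.3 kb. Chromosome 4 followed with 9 peaks and 8.41 kb, and chromosome 16 with 6 peaks and 8.32 kb. The same first 500 kb held 215 KO peaks, of which 135, or 62.8%, met no WT peak, against 99.4% of all autosomal KO peaks.

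Of the blocks of 1 kept peak, 83 were peaks that stood alone, with no other WT peak within 10 kb. A neighbour was present for 74.9% (69.9 to 79.5%) of kept peaks and for 45.3% (40.7 to 50.1%) of WT-only peaks. With peaks within 1 kb merged first, so that pieces of one region count once, these shares were 40.4 and 26.7%. Solitary kept peaks had a median width of 359 bp (quartiles 336 and 465 bp), and solitary WT-only peaks 230 bp (199 and 278 bp). They were covered in KO over a median of 99.4% of their width. Width went with being kept among solitary peaks too. Of those from 300 bp to under 1 kb, 64 of 106 were kept, or 60.4% (50.4 to 69.7%), and of those under 300 bp 16 of 220, or 7.27% (4.21 to 11.5%). Among peaks with a neighbour 63.8% (57.2 to 70.1%) of the wider class and 27.5% (20.6 to 35.2%) of the narrower class were kept. A wider peak has more room to meet a KO peak, so these shares by width are a description and test nothing.

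The widest solitary kept peak lay on chromosome 15 from 74915816 to 74917618, with 1803 bp in WT and a KO peak of 1805 bp. Alone among the solitary peaks named here, it was overlapped by a KDM4B KO peak and by H3 peaks of both genotypes. The next, on chromosome 5 from 80242328 to 80243891, had 1564 bp in WT and 1499 bp covered in KO. That on chromosome 1 from 26743726 to 26745172 had 1447 bp in WT and 829 bp covered by 3 KO peaks. On chromosome 10 from 21861980 to 21862945 the WT peak of 966 bp met a KO peak of 965 bp. On chromosome 14 from 69958116 to 69959040 a WT peak of 925 bp met a KO peak of 254 bp. The sites on chromosomes 15, 5 and 10 kept nearly their full width, and those on chromosomes 1 and 14 did not.

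The KDM4B peaks of KO cells, which the rule did not use, lay at kept rather than at WT-only peaks. A KDM4B peak called in KO cells, where the targeted gene is deleted, overlapped 26 of 331 kept peaks, or 7.85% (5.20 to 11.3%), against 3.33% of all autosomal WT peaks. It overlapped 0 of 450 WT-only peaks, a count that allows a share of up to 0.667%. The 26 overlapped kept peaks were wide, with a median of 836 bp and a smallest width of 368 bp. WT-only peaks had a median of 248.5 bp and an upper quartile of 328 bp. The sets were not matched for width, so the limit for WT-only peaks of like width is higher. Within 10 kb the counts were 43 kept and 0 WT-only peaks, or 13.0% (9.56 to 17.1%) and 0%, against 5.51% of all. The block at the start of chromosome 9 supplied 27 of the 43. Without it 16 of 304 kept peaks, or 5.26% (3.04 to 8.41%), lay within 10 kb and 15, or 4.93% (2.79 to 8.01%), overlapped. On both counts WT-only peaks stayed at 0 of 450. The shares of all autosomal WT peaks given here include that block, so they are no background for the counts without it. Of the 34 autosomal KDM4B peaks of KO cells, 33 lay in the blocks of kept peaks. They were spread over 13 blocks, with 17 in the chromosome 9 block, 3 in the chromosome 17 block from 39979832 to 39985918 and 3 on chromosome 2 from 98502253 to 98507614, and 9 of the 26 kept peaks stood alone. Leaving out the chromosome 9 block, KDM4B KO or H3 peaks overlapped 6.58% (4.06 to 9.98%) of kept and 0.222% (0.00563 to 1.23%) of WT-only peaks, against 9.97% (6.96 to 13.7%) and 0.222% with it.

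Total H3 also met kept peaks more than WT-only peaks, although about as many H3 peaks lay elsewhere. A peak of either H3 list overlapped 16 kept peaks, or 4.83% (2.79 to 7.73%), and 1 WT-only peak, or 0.222% (0.00563 to 1.23%), against 2.18% of all autosomal WT peaks. Within 10 kb the counts were 50 kept and 5 WT-only peaks, or 15.1% (11.4 to 19.4%) and 1.11% (0.362 to 2.57%), against 7.04% of all. Without the chromosome 9 block, 23 of 304 kept peaks remained within 10 kb, or 7.57% (4.86 to 11.1%), and 5 of 450 WT-only peaks, or 1.11%. The 7.04% of all autosomal WT peaks includes that block, so it is no background for the counts without it. Of the autosomal H3 peaks, 13 of 27 in KO and 17 of 34 in WT lay in blocks of kept peaks. KDM4B KO and H3 peaks shared 6 of the blocks.

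**Figure D4:**
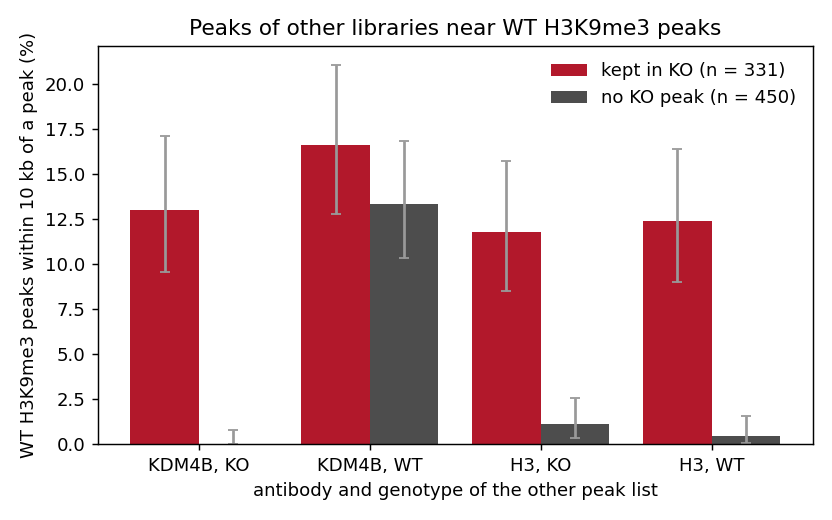
Share of kept peaks and of WT-only peaks (y axis, %) that lie within 10 kb of a peak of 4 other lists (x axis: KDM4B in KO and in WT, H3 in KO and in WT); error bars are 95% exact binomial intervals. For KDM4B in KO and for H3 in both genotypes kept peaks reach 11.8 to 13.0% and WT-only peaks 0 to 1.11%, while for KDM4B in WT the bars stand at 16.6 and 13.3% with overlapping intervals. The block at the start of chromosome 9 gives 27 of the kept peaks near KDM4B KO and near H3 WT peaks, and without it these shares are 5.26 and 4.61%.

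The H3 peaks on kept regions had higher pileups and lower fold enrichments than those far from them. In the authors' deposited H3 WT table, the 16 autosomal peaks on a kept peak had a median pileup at the summit of 135.5 tags (34 to 152) and a median fold enrichment of 2.69 (1.63 to 5.95). The 16 peaks more than 10 kb away had a median pileup of 27 tags (12 to 52) and a median fold enrichment of 8.01 (4.56 to 10.0). The remaining 2, within 10 kb but not on a kept peak, had pileups of 20 and 27 tags and fold enrichments of 5.69 to 7.88. Since fold enrichment is the pileup relative to the local background, the pileup divided by it approximates that background, which had a median of 46.8 tags (11.4 to 90.03) on kept peaks and 3.13 tags (2.52 to 7.07) at the 16 distant ones. The 2 ranges of this background do not overlap. The H3 peaks on kept peaks were clustered, however, and peaks of a block are not independent. Of the 17 H3 WT peaks in blocks of kept peaks, 8 lay in the block at the start of chromosome 9. Another 4 lay in the chromosome 2 block from 98502253 to 98507614, so the values on kept peaks rest on few places. The 4 H3 peaks on chromosome 2 between 98502704 and 98507123 had pileups of 148 to 152 tags and fold enrichments of 1.69 to 1.91. The control behind the H3K9me3 peak calls was not analysed here, and the part that local background plays in the kept H3K9me3 peaks was not tested.

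Cover in KO was higher at the kept peaks that KDM4B KO or H3 peaks overlapped than at the other kept peaks. The 33 kept peaks overlapped by a KDM4B KO or an H3 peak were covered in KO over 98.5% of their length, with a median of 100% and a lowest value of 72.8%. The other 298 were covered over 81.7% of their length, with a median of 94.97%. Cover of at least 90% was seen in 30 of the 33 and in 165 of the 298. The 33 were also wider, with a median of 681 bp against 400 bp. The 33 came from 16 blocks, among them the block at the start of chromosome 9. The 27 kept peaks of that block, overlapped or not, were together covered over 95.7% of their length. A single chromosome 11 peak gave 19611 bp of the 50.96 kb in the 33. The cover of the 33 was not recomputed without these blocks. In the same chromosome 11 block, the peak of 18791 bp was not overlapped by a KDM4B KO or H3 peak and was also covered from end to end. By block, the 16 blocks with a KDM4B KO or H3 peak had a median KO to WT ratio of covered length of 1.009 (quartiles 0.994 and 1.02). The other 131 had a median of 1.00 (0.878 and 1.15), so the medians were alike and the spread was not.

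KDM4B as bound in WT cells met few kept peaks. It overlapped 6 of 331 kept peaks, or 1.81% (0.668 to 3.90%), and 7 of 450 WT-only peaks, or 1.56% (0.628 to 3.18%), against 1.66% of all autosomal WT peaks. Within 10 kb the shares were 16.6% (12.8 to 21.1%) for kept and 13.3% (10.3 to 16.8%) for WT-only peaks, against 14.7% of all. The intervals overlap in both comparisons, which is no test of a difference, and none was run. Within 50 kb the shares were 40.5% (35.2 to 46.0%) for kept and 31.1% (26.9 to 35.6%) for WT-only peaks, with intervals that overlap slightly.

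The 6 kept peaks under KDM4B came from 4 blocks. A pair lay on chromosome 10, from 80640739 to 80641063 and from 80641713 to 80642043, both wholly inside 1 KO peak of 1350 bp. On chromosome 15 the peak from 76008736 to 76009635 overlapped 3 KDM4B peaks and was covered in KO over 23.0%, and that from 76009938 to 76010268 overlapped 2 and was covered over 78.5%. The peak of 3718 bp at the end of chromosome 13, from 120280567 to 120284284, overlapped 2 KDM4B peaks and was covered over 58.7% by 4 KO peaks. The sixth, of 199 bp on chromosome 19 from 61302301 to 61302499, lay inside a KDM4B domain of 4229 bp and met a KO peak of 498 bp. The KO peak was thus longer than the WT peak on chromosomes 10 and 19 and shorter on chromosomes 13 and 15.

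The surroundings of kept peaks held more KO peaks than the autosomes as a whole, and so did those of WT-only peaks. From 1 to 10 kb on each side of kept peaks there were 46.2 KO peaks per Mb that met no WT peak (95% exact Poisson interval 39.0 to 54.4), and around WT-only peaks 43.8 per Mb (38.7 to 49.4). The autosomes as a whole had 22.8 per Mb. With peaks within 1 kb merged first the values were 27.4 (21.7 to 34.1) around kept and 29.6 (25.3 to 34.5) around WT-only peaks, against 17.5 on the autosomes. Around solitary peaks the values were 24.1 per Mb (16.9 to 33.4) for kept and 38.2 per Mb (32.6 to 44.4) for WT-only peaks. Solitary kept peaks therefore stood in surroundings close to the autosomal level, and the 2 intervals for solitary peaks overlap slightly. KDM4B peaks of WT cells in the same surroundings numbered 20.5 per Mb (15.8 to 26.2) around kept and 16.8 per Mb (13.7 to 20.4) around WT-only peaks, against 13.1 per Mb on the autosomes.

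**Figure D5:**
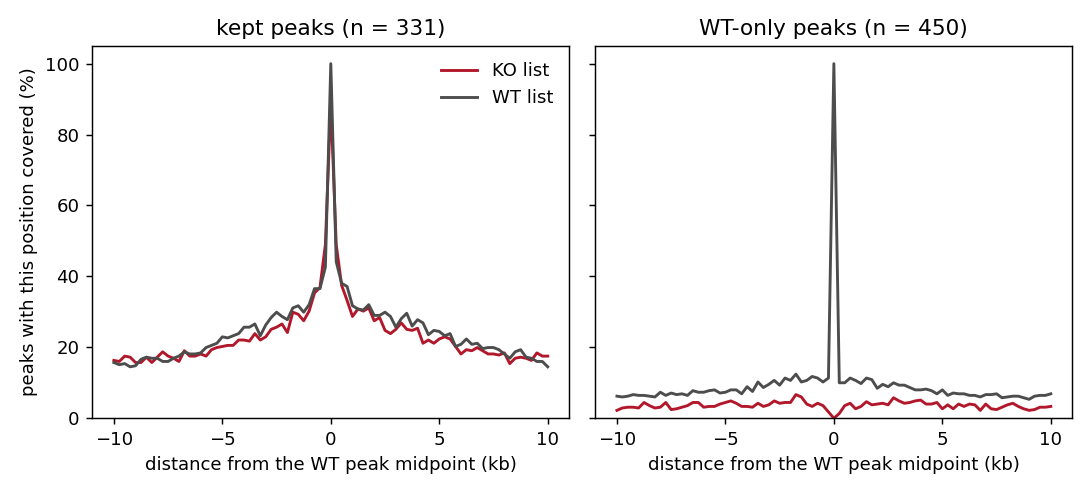
Share of peaks (y axis, %) for which a position at a given distance from the WT peak midpoint (x axis, kb, in steps of 250 bp) is covered by a KO or a WT H3K9me3 peak, for kept peaks on the left and WT-only peaks on the right. The rule fixes the WT values at the midpoint and the KO value of 0 for WT-only peaks. At the midpoint 89.1% of kept peaks are covered in KO. At 5 kb from it kept peaks have 20.2 and 22.4% covered in KO and 23.0 and 24.5% in WT. WT-only peaks there have 4.44 and 2.67% in KO and 7.33 and 8% in WT. The KO values include KO peaks that met the same or a neighbouring kept peak. Away from the midpoint they therefore also depend partly on the rule. In the surroundings given in the text, KO peaks that met no WT peak numbered 46.2 per Mb for kept and 43.8 per Mb for WT-only peaks.

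Seen from the KO list, the kept regions took up a small and wide part of it. The 331 kept peaks met 341 KO peaks, or 0.618% of the 55158 autosomal KO peaks. These 341 had a median width of 416 bp (quartiles 329 and 762 bp), against 255 bp (206 and 347 bp) for the 54817 that met no WT peak. At least 1 kb was reached by 60 of the 341, or 17.6%, and by 210 of the 54817, or 0.383%. Of the 20 widest autosomal KO peaks 16 met a kept peak, and of the 100 widest 46 did. In length, 88.7% of the 302.8 kb in these 341 KO peaks lay inside a kept WT peak. Across the 234 one-to-one pairs KO and WT widths rose together, with a Spearman rho of 0.62, given as a description of pairs that share their position and their 2 libraries.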

How the data were processed

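The data were ChIP-seq peak lists from 8 samples, of which the 2 inputs were not analysed here. The submitters' processing notes name Bowtie and SAMtools, MACS (KDM4B) or MACS2 (H3K9me3, H3), and the builds mm9 and hg19. Of the 6 lists, 5 hold chromosome, start and end as deposited by the authors, with no score. Per the file headers, MACS2 2.1.4 made the H3 WT table, with a control and a q-value threshold of 0.05. Its deposited pileup signal, its fold enrichment ratio and its −log10 p-value and −log10 q-value are the authors'. The first 2 were used. No source used here states pooling, spike-in use or other thresholds. Peaks reach past the end of the GRCm38.p6 gene table on 9 of 21 chromosomes, so that table and the promoter sequences of its build were not used and no sequence is printed. The position-only lists were read as counting from 0, and a list counting from 1 would shift by 1 bp.

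Overlap meant at least 1 shared bp. Kept peaks within 10 kb were chained into blocks, whose span runs from the first to the last base of the kept peaks and the KO peaks that met them. Covered length counts every H3K9me3 peak of a genotype in that span, WT-only peaks included. Intervals are 95% exact ones, binomial (Clopper-Pearson) for shares and Poisson for densities, and cover counting error. The upper limit beside a count of 0 is 3 counts of the total. Named were the 10 longest blocks, the 5 widest solitary kept peaks, the 3 on each side of the rule's limit, all that overlap KDM4B WT and the 5 wide ones least covered in KO. Other regions named with KDM4B KO or H3 peaks were chosen after their values were seen. The regions and lists were chosen with earlier results of these data known. The work used Python 3.11.15 with numpy 2.4.6, pandas 2.3.3 and scipy 1.17.1, overlap counts were checked on simulated lists and equalled those of bedtools 2.31.1 in all 30 list pairs.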

Additional observations from a re-analysis of the deposited data

How the results depend on the processing

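Of 101 values recomputed under 11 alternatives, 75 stayed within the interval of the main value, or within 1.5 times for counts. For medians that interval came from ranked values. For the share of kept length covered it treated the share as a count among kept peaks, so it is a rough yardstick there. No order between kept and WT-only peaks in width, neighbours or overlap with KDM4B KO or H3 was turned round. The order of unmatched KO peaks around them was, at 45.7 per Mb for kept and 45.8 for WT-only peaks with 50% overlap of the shorter peak, and with merging below. Counting peaks within 1 kb as sharing raised the share kept to 52.2%, and gave 76.8% of the kept length covered, a kept median width of 390 bp, 39.4% of WT-only peaks with a neighbour and 31.7 unmatched KO peaks per Mb around them. Merging peaks within 1 kb first gave 183 kept regions (34.7%), 77.0% covered, median widths of 484 and 237 bp for kept and WT-only, 35.5% of kept regions of 1 kb or more, neighbours for 40.4 and 26.7%, and 27.4 and 29.6 unmatched KO peaks per Mb. Counting each WT block once gave 34.4% kept. Leaving out peaks near (10 kb) an H3 or a KDM4B KO peak gave 38.0% kept and 79.7% covered, and leaving out the 2 longest blocks 78.2% covered. With X and Y, 51.4% of WT-only peaks had a neighbour, and 52.0% had one within 50 kb. Within 50 kb, 40.5% of kept and 31.1% of WT-only peaks had a KDM4B WT peak. Without the chromosome 9 block, an alternative chosen after seeing the data, KDM4B KO or H3 overlapped 6.58% of kept peaks, and 5.26 and 7.57% lay within 10 kb of KDM4B KO and of H3 peaks. The merging and the wider limits change these values by construction, and the cause of the other shifts was not tested. Depth is unknown for both H3K9me3 lists, so whether a WT-only peak lies just under the KO threshold was not tested. No paired analysis was possible because each group has 1 library.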

Other observations

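The sex chromosomes were left out of the regions above. On the X chromosome 54 of 112 WT H3K9me3 peaks met a KO peak, in 16 blocks of 27.6 kb, and KO peaks covered 77.8% of that length. On the Y chromosome 25 of 50 did, or 50% (95% exact binomial interval 35.5 to 64.5%), in 8 blocks of 74.6 kb, with 80.9% covered. The median width of these peaks on the Y was 1081 bp, against 332 bp for the Y peaks that met no KO peak, and on the X 370 bp against 315.5 bp.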
